A study of Saccharomyces cerevisiae with 8 samples.

Results

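The genes that build the aromatic ring of tryptophan, phenylalanine and tyrosine, and those that turn chorismate into tryptophan, were followed across 8 RNA-seq libraries of the budding yeast Saccharomyces cerevisiae. They were taken by systematic name: TRP1 to TRP5, ARO1 to ARO4 and ARO7, that is 10 of 6534 gene identifiers in the count table. The set was chosen by the counts of TRP1 in the genotypes, which earlier results of the same libraries had shown. All 10 passed the filter on low counts, which left 5954 genes for testing, although TRP1 passed through the libraries of 1 genotype alone. Exponentially growing cells spent 5 hours in defined synthetic medium. There were 4 groups of 2 libraries: mub1 deletion with 20 µg/ml Calcofluor white (CFW, a dye that binds chitin and disturbs the cell wall), mub1 deletion with 0 µg/ml, wild type with 20 µg/ml and wild type with 0 µg/ml. The labels place both genotypes in strain BMA41, name no further allele and do not say whether the deletion line is a single clone. Nor do they say that replicates came from separate cultures, and the spread behind each p-value may therefore be technical. MUB1 encodes a partner of the ubiquitin ligase Ubr2.

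The pathway starts when phosphoenolpyruvate and erythrose 4-phosphate are joined by the isoenzymes Aro3 and Aro4, which are inhibited by phenylalanine and tyrosine. Aro1, a protein with several catalytic domains, and Aro2 carry the product on to chorismate. From there Aro7 opens the branch to phenylalanine and tyrosine, while Trp2 with Trp3, Trp4, Trp1, Trp3 again and Trp5 act in turn to make tryptophan. Many of these genes are known targets of Gcn4, the transcription factor that raises amino acid synthesis when amino acids run short.

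Library totals ran from 24147195 to 31677985 counts. MUB1 itself had 0 to 1 counts in the 4 libraries labelled mub1 and 1042 to 1226 in the 4 labelled wild type. Other genes also parted the labels. LEU2 had 4933 to 7122 counts in libraries labelled mub1 against 0 to 2 in those labelled wild type. For URA3 the counts were 5950 to 6648 in mub1 against 0 to 1 in wild type, and for MET17 2621 to 4538 in mub1 against 0 to 1 in wild type. ADE2 had 45.6 to 54.7 CPM (defined with TRP1 below) in mub1 against 166.7 to 176 in wild type, and HIS3 24.5 to 39.5 CPM in mub1 against 61.6 to 80.5 in wild type. BMA41 is generally described as a derivative of strain W303 that carries a deletion of TRP1. In TRP1 the libraries labelled mub1 match that description and those labelled wild type do not. In every genotype comparison below, the loss of MUB1 cannot be told apart from the differences in LEU2, URA3, MET17, ADE2, HIS3 and TRP1. The same holds for any other difference between the strains behind the labels, and for the interaction. The replicate spread over sampling noise was widest in wild type with CFW, where it was 75.92 times the variance of counting alone, and it was 11.38 to 29.66 times in the other groups. In that group replicate 2 was the lower library in 9 of the 9 genes other than TRP1, by 0.01 to 0.65 on the log2 scale. In mub1 without CFW replicate 2 was the higher library in 8 of these 9 genes, by up to 0.34.

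TRP1 (YDR007W, chromosome IV, 461842 to 462516, plus strand, build R64, 1 coding exon) encodes phosphoribosylanthranilate isomerase, the enzyme between Trp4 and the second activity of Trp3. It had 0 counts in all 4 libraries labelled mub1, and 909 and 976 counts in wild type with CFW and 989 and 935 in wild type without CFW. Such a 0 leaves room for a true level of at most 0.0939 to 0.124 CPM, depending on the library (CPM are counts scaled to a common library size after correction by the trimmed mean of M values, TMM), as far as counting error goes. With 3 counts per group set as the floor for mub1, TRP1 was thus at least 726.4-fold lower in mub1 than in wild type with CFW and at least 644.6-fold lower without. No test is given for this difference, since it chose the genes. Within the wild-type-labelled libraries, where it could be measured, TRP1 had 35.7 and 38.7 CPM with CFW and 38.5 and 38.0 CPM without. These groups overlapped, and the log2 change with CFW was -0.04 ± 0.11 (SE, 95% interval -0.30 to 0.22, n = 2 libraries per group). The change did not pass edgeR's quasi-likelihood test (adjusted p = 0.834).

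**Figure D1:**
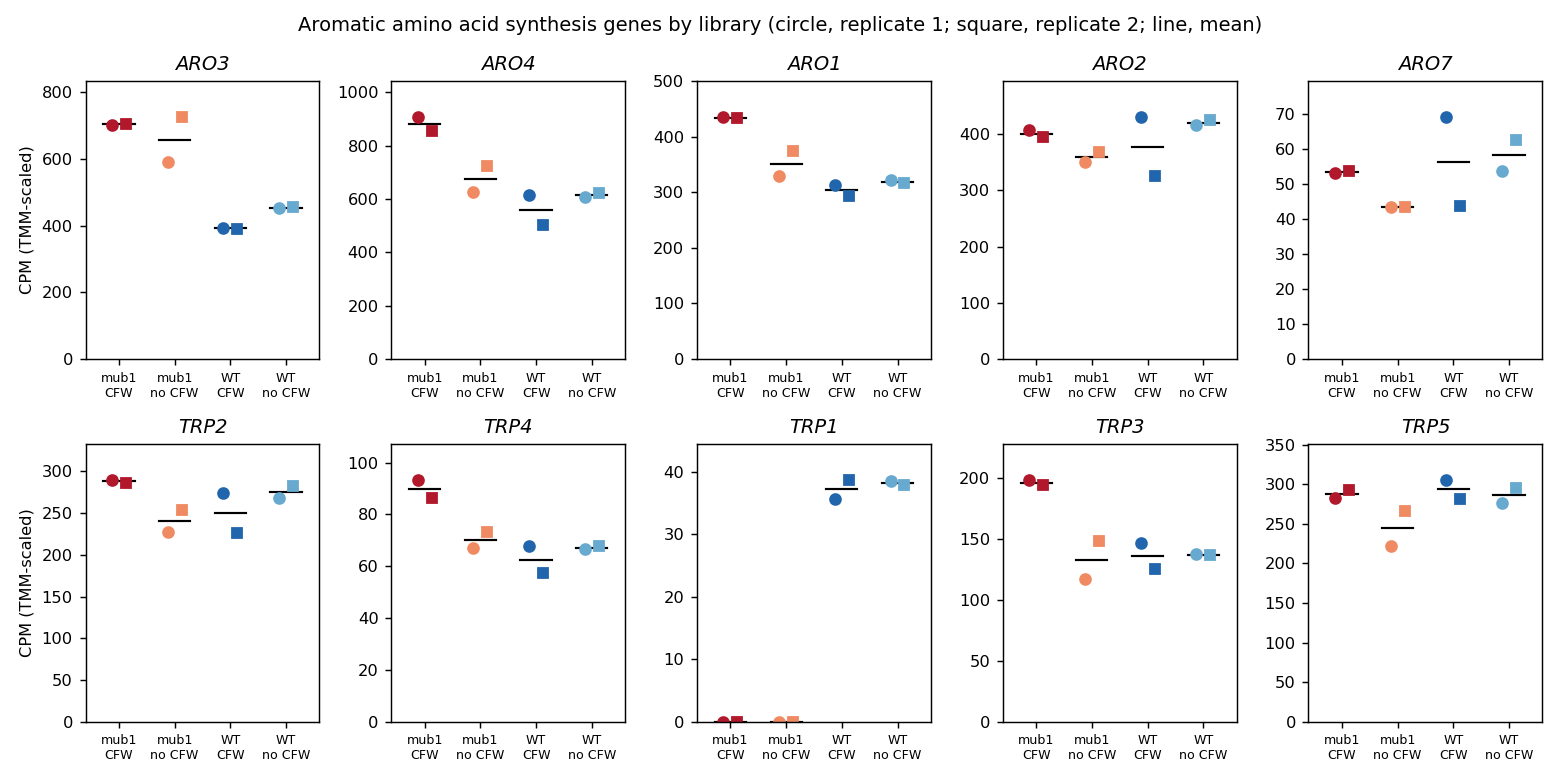
Level of each gene in every library, in CPM on the vertical axes, which start at 0. Groups run from mub1 with CFW on the left to wild type without CFW on the right, circles and squares are replicates 1 and 2, and lines are means of 2 libraries. TRP1 is at 0 in the 4 libraries labelled mub1, and in TRP2, TRP3, TRP4, ARO1 and ARO4 both libraries of mub1 with CFW lie above the other 6.

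The gap at TRP1 did not extend to its annotated neighbours. SOK1 (YDR006C, chromosome IV), on the left of TRP1, had 131.0 and 120.5 CPM in mub1 with CFW and 147.0 and 133.4 without, against 128.7 and 139.8 in wild type with CFW and 145.0 and 140.8 without. GAL3 (YDR009W, chromosome IV), a sensor of galactose on the right of TRP1, had 17.7 and 16.5 CPM in mub1 with CFW and 24.1 and 21.2 without, against 20.4 and 21.8 in wild type with CFW and 27.3 and 25.8 without. All 8 libraries thus had reads from both neighbours. GAL3 fell with CFW in mub1 (log2 -0.40 ± 0.11, SE, edgeR adjusted p = 0.0237), a call lost without replicate 1 of mub1 lacking CFW or either library of mub1 with CFW. The identifier YDR008C, which has no entry in the annotation used, had 0 counts in the 4 libraries labelled mub1 and 4 to 16 counts in those labelled wild type. The strand setting of the counting is not given in the sources used here.

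Of 5235 other genes with a mean of at least 10 CPM, the one whose profile over the 8 libraries came closest to that of TRP1 was MUB1. The distance, the root mean square difference of log2 CPM values centred per gene, was 0.10 between the pair. The next nearest were SPL2 (0.92), QDR2 (1.54), PHO5 (1.54) and LEU1 (1.56). The counts of TRP1 in the genotypes chose the set and MUB1 is the deleted gene, so the place of MUB1 restates those values. Among the other members, TRP4 was closest to ARO1 (0.06), the only case in which the nearest gene of a member was another member, while ARO1 itself was closest to a different gene. The nearest gene was OLA1 for TRP2 (0.04), FUR1 for TRP3 (0.05), KRE29 for TRP5 (0.03), PYC2 for ARO3 (0.08), ODC2 for ARO4 (0.06), ERG12 for ARO1 (0.05), EFT1 for ARO2 (0.03) and RPL1A for ARO7 (0.05).

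The core of the site bound by Gcn4, TGACTC, was searched on both strands in the 300 bases before the start codon, because this factor is known to regulate much of the pathway. It was found before 4 of the 10 genes, TRP2, TRP3, TRP4 and ARO1, against 466 of 6001 protein-coding genes of the annotation (7.77%). The longer form TGACTCA, which contains the shorter one, was found before 3 of the 10, all but TRP4, against 157 of 6001 genes (2.62%). The stretches around the matches are taken from the RefSeq genome of build R64, read 5′ to 3′ on the strand of the gene, with the 6 bases of the core in capitals. They lie at chrV:337760-337819 (plus strand) for TRP2, chrXI:38244-38303 (minus strand) for TRP3, chrIV:1184555-1184614 (plus strand) for TRP4 and chrIV:704234-704293 (plus strand) for ARO1.
TRP2: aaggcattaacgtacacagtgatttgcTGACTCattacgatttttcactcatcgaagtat
TRP3: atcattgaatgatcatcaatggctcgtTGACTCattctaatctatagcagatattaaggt
TRP4: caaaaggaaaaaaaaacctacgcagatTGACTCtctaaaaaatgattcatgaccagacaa
ARO1: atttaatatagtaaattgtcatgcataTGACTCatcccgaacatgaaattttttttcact
The last base of the core lies 157, 118, 160 and 218 bases before the start codon in TRP2, TRP3, TRP4 and ARO1. A match is a description of letters and not a measured binding site, and for the other 6 genes these letters are simply not in the window.

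The change with CFW was tested within each genotype. In mub1, 4 of the 9 genes other than TRP1 rose and 0 fell, where 13.8% of all tested genes rose and 14.0% fell (27.7% in either direction). Those that rose were TRP3, TRP4, ARO4 and ARO1, by between 1.23 and 1.48 times. In wild type 0 of the 10 passed, where 19.0% of all tested genes did (10.3% higher and 8.70% lower). The test of the difference between these responses called 0 of the 9 genes, and the 4 calls in mub1 fell to 0 when 1 of 2 single mub1 libraries was left out.

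At the entry to the pathway, ARO4 (YBR249C, chromosome II, 716882 to 717994, minus strand), the tyrosine-inhibited isoenzyme, had 906.1 and 855.2 CPM in mub1 with CFW and 625.6 and 724.4 without, against 615.1 and 502.1 in wild type with CFW and 608.0 and 623.9 without. The mub1 groups did not overlap, and the wild-type groups did. ARO4 rose by 0.38 ± 0.12 on the log2 scale in mub1 (SE, n = 2 libraries per group, edgeR adjusted p = 0.0395). In wild type its change was -0.14 ± 0.12 (adjusted p = 0.44 by the same test). ARO3 (YDR035W, chromosome IV, 521816 to 522928, plus strand), the phenylalanine-inhibited isoenzyme, had 701.8 and 705.5 CPM in mub1 with CFW and 589.7 and 725.3 without, against 392.7 and 390.9 in wild type with CFW and 452.7 and 456.5 without. Here the mub1 groups overlapped, and in wild type both libraries with CFW were below both without. Neither change passed the test, with log2 0.10 ± 0.10 in mub1 (95% interval -0.14 to 0.33) and -0.21 ± 0.10 in wild type (-0.45 to 0.02). The intervals of ARO3 and ARO4 in mub1 overlapped, and a difference between the isoenzymes was not tested.

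Further along, ARO1 (YDR127W, chromosome IV, 704484 to 709250, plus strand), the multifunctional enzyme of the shikimate pathway, had 435.0 and 433.3 CPM in mub1 with CFW and 328.7 and 374.7 without, against 313.7 and 292.9 in wild type with CFW and 321.6 and 316.4 without. Both mub1 libraries with CFW were above all 6 others. ARO1 rose by 0.30 ± 0.09 in mub1 (log2, SE, edgeR adjusted p = 0.0277), and its change in wild type was -0.07 ± 0.09 (adjusted p = 0.591, same test). ARO2 (YGL148W, chromosome VII, 226399 to 227529, plus strand), chorismate synthase, had 406.7 and 394.9 CPM in mub1 with CFW and 350.6 and 367.5 without, against 430.0 and 324.9 in wild type with CFW and 415.6 and 424.8 without. The mub1 groups did not overlap, whereas the wild-type libraries with CFW lay on either side of those without. ARO2 did not pass, at log2 0.16 ± 0.12 in mub1 (95% interval -0.11 to 0.43) and -0.15 ± 0.12 in wild type (-0.42 to 0.11).

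ARO7 (YPR060C, chromosome XVI, 674861 to 675631, minus strand), the chorismate mutase that tryptophan activates and tyrosine inhibits, had 53.3 and 53.9 CPM in mub1 with CFW and 43.6 and 43.5 without, against 69.2 and 43.9 in wild type with CFW and 53.9 and 62.8 without. The mub1 libraries fell into separate, tight pairs, while the wild-type libraries with CFW spread more widely on the log2 scale (0.65 between replicates) than in any of the other 8 genes measured in both genotypes. The change was 0.30 ± 0.17 in mub1 (log2, 95% interval -0.09 to 0.69) and -0.04 ± 0.17 in wild type (-0.43 to 0.35), and neither passed.

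In the tryptophan branch TRP3 (YKL211C, chromosome XI, 36699 to 38153, minus strand), which joins Trp2 in anthranilate synthase and also makes indole-glycerol phosphate, showed the largest rise of the 9 genes. It had 198.3 and 193.9 CPM in mub1 with CFW and 117.1 and 148.0 without, against 146.8 and 125.6 in wild type with CFW and 137.2 and 136.6 without. Both mub1 libraries with CFW were above all others, and the 2 without CFW lay on either side of the wild-type ones without CFW. TRP3 rose 1.48-fold in mub1 (log2 0.56 ± 0.11, SE, edgeR adjusted p = 0.00692). Its change in wild type was -0.01 ± 0.11 (adjusted p = 0.974, same test). TRP4 (YDR354W, chromosome IV, 1184747 to 1185889, plus strand), anthranilate phosphoribosyltransferase, had 93.3 and 86.5 CPM in mub1 with CFW and 67.2 and 73.4 without, against 67.9 and 57.2 in wild type with CFW and 66.5 and 67.8 without. The mub1 libraries with CFW again stood above the other 6. TRP4 rose by 0.35 ± 0.09 in mub1 (log2, edgeR adjusted p = 0.0223) and changed by -0.10 ± 0.10 in wild type (adjusted p = 0.485, same test).

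TRP2 (YER090W, chromosome V, 337949 to 339472, plus strand), the other part of anthranilate synthase, had 289.7 and 286.4 CPM in mub1 with CFW and 227.8 and 253.2 without, against 273.6 and 225.7 in wild type with CFW and 268.3 and 282.1 without. TRP5 (YGL026C, chromosome VII, 446412 to 448535, minus strand), tryptophan synthase, had 283.1 and 292.8 CPM in mub1 with CFW and 221.9 and 266.6 without, against 305.4 and 281.7 in wild type with CFW and 276.9 and 295.6 without. In both genes the mub1 groups did not overlap and the wild-type groups did. Neither passed the test in mub1, where the log2 change was 0.26 ± 0.10 for TRP2 (edgeR adjusted p = 0.0762) and 0.24 ± 0.10 for TRP5 (0.0927). In wild type the changes were -0.14 ± 0.10 and 0.04 ± 0.10.

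**Figure D2:**
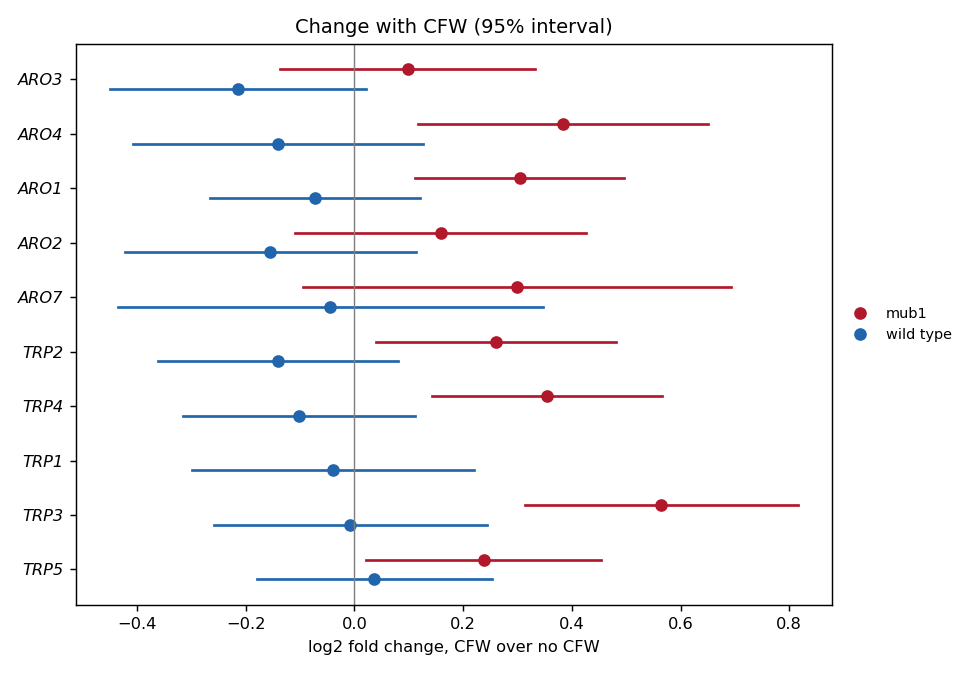
Change with CFW on the log2 scale (horizontal axis) for each gene, mub1 above wild type, with dots for the fitted value and bars for its 95% interval. The 9 dots of mub1 run from 0.10 (ARO3) to 0.56 (TRP3), those of wild type from -0.21 (ARO3) to 0.04 (TRP5), and TRP1 has no value in mub1.

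Over the 9 genes the median log2 change was 0.30 in mub1 and -0.10 in wild type, against 0.00 and -0.01 over all 5954 genes tested. In mub1 both libraries with CFW lay above both without in 8 of the 9 genes and the groups overlapped in ARO3, where 36.5% of all tested genes were higher without overlap and 35.1% lower. In wild type 2 of the 9 were lower without overlap (ARO3 and ARO1) and 0 were higher, against 31.4% and 27.4% of all genes. The count of 0 called in wild type came from edgeR. DESeq2 also called 0, and 0 of the 9 genes other than TRP1 had an unadjusted p under 0.05, where 34.2% of all tested genes did. The 4 calls in mub1 depended on single libraries, while the 4 log2 changes stayed positive in all 14 alternatives. They ran from 0.41 to 0.74 for TRP3, 0.29 to 0.42 for TRP4, 0.21 to 0.40 for ARO1 and 0.28 to 0.49 for ARO4. The spread is estimated over all libraries of a fit, so a library outside the contrast can also move a call. The count was 0 without replicate 1 of mub1 lacking CFW or without replicate 1 of mub1 with CFW, 1 without replicate 2 of mub1 with CFW, and 2 without either wild-type library lacking CFW, although those libraries are not in the contrast. It was 7 when 1 of the wild-type libraries with CFW was left out, whichever it was, and 7 with only the 4 mub1 libraries fitted. TRP3 lost its call without replicate 1 of either mub1 group, with adjusted p up to 0.0544, and TRP4 also without replicate 2 of mub1 with CFW (up to 0.153). ARO1 lost it without any of 5 libraries (up to 0.203) and ARO4 without any of 6 (up to 0.251), all by edgeR's test. With the replicate number as a block 3 of the 9 were called, ARO4 being lost. The share of all tested genes called in each alternative fit is not given. Shifts in the count are therefore not read as particular to the pathway. In wild type 4 genes (TRP2, ARO2, ARO4 and ARO7) were called lower once replicate 1 with CFW was left out.

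Whether the response differed between the genotypes was asked with the interaction term, the change in mub1 minus that in wild type. By edgeR 0 of the 9 genes passed, where 2.50% of all tested genes did (0.890% with a positive and 1.61% with a negative value). All 9 values were positive, from 0.20 (TRP5, 95% interval -0.10 to 0.51) to 0.57 (TRP3, 0.22 to 0.93), with a median of 0.38 against 0.00 over all tested genes. Of all tested genes 49.38% had a positive value. The 9 values rest on the same libraries, so their signs are not independent. Unadjusted p fell under 0.05 in 5 of the 9 genes and in 24.07% of all genes, and the adjusted p ran from 0.0801 (TRP3) to 0.418 (ARO7). DESeq2 called 3 of them, TRP3, ARO4 and ARO1. Without replicate 1 of wild type with CFW the edgeR count was 7, and with any other library left out it was 0. No share of all tested genes stands beside the counts of these alternative fits, so they are not read as particular to the pathway. The fit over all 8 libraries shows no difference in response that passes, and the intervals allow one of up to 0.93.

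The levels of the genotypes are given as a description, because a genotype difference chose these genes. With CFW, ARO3 was 0.84 ± 0.11 higher in mub1 on the log2 scale (SE), ARO4 0.66 ± 0.12, TRP3 0.53 ± 0.11, TRP4 0.52 ± 0.09 and ARO1 0.52 ± 0.09. In these 5 genes and in TRP2 (0.21 ± 0.10) both mub1 libraries were above both wild-type ones. TRP5 (-0.03 ± 0.10), ARO2 (0.09 ± 0.12) and ARO7 (-0.08 ± 0.17) overlapped. Without CFW, ARO3 was 0.53 ± 0.10 higher in mub1, and ARO4 (0.13 ± 0.12) and ARO1 (0.14 ± 0.09) were also higher without overlap. ARO7 (-0.42 ± 0.17), TRP5 (-0.23 ± 0.10), ARO2 (-0.23 ± 0.12) and TRP2 (-0.19 ± 0.10) were lower in mub1 without overlap, and TRP3 (-0.05 ± 0.11) and TRP4 (0.07 ± 0.09) overlapped. Of the 9 genes other than TRP1, ARO3 thus had the largest log2 difference in both media, and it was also the one whose mub1 groups overlapped between media. By edgeR's test 5 of the 9 genes passed with CFW, where 35.9% of all tested genes did (18.6% higher, 17.3% lower), and 1 of the 9 without CFW, where 42.9% did (22.1% higher, 20.8% lower). Without overlap, 33.0% of all tested genes were higher and 33.2% lower in mub1 with CFW, and 37.8% higher and 39.7% lower without CFW. Nothing is read from these counts, since this contrast was used in the choice. The comparisons with CFW and of CFW within mub1 share the libraries of mub1 with CFW.

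**Figure D3:**
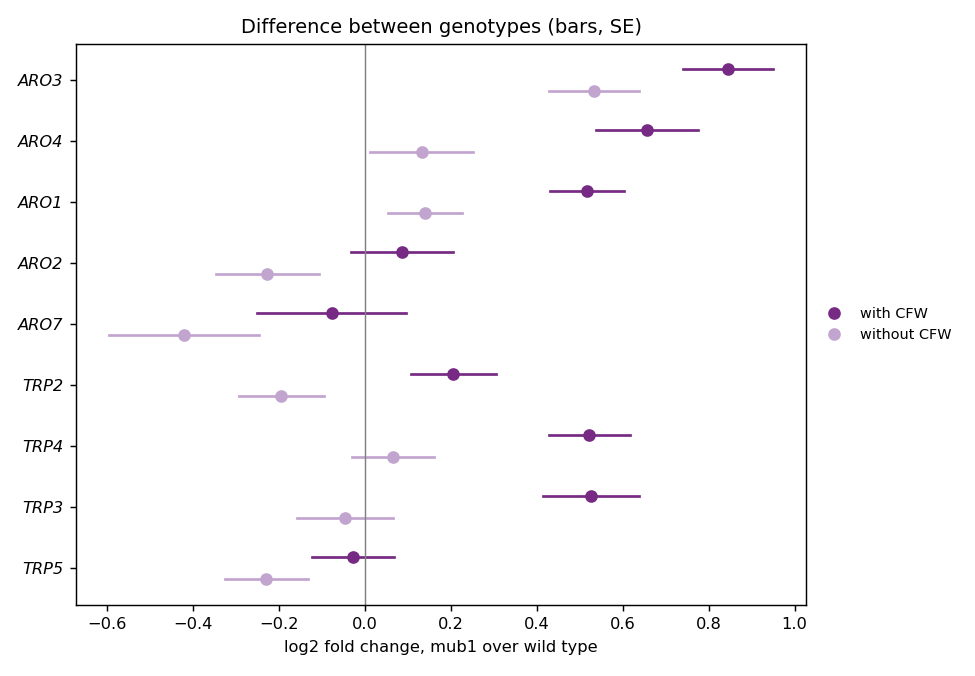
Difference between the genotypes on the log2 scale (horizontal axis, mub1 over wild type) for the 9 genes other than TRP1, with CFW above and without CFW below in each row. Bars are the SE of the fit, and ARO3 has the largest value in both media (0.84 and 0.53).

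Per coding length the transcripts of the entry enzymes had the highest mean levels of the 10 genes in each group. On a per-length scale (TPM, from coding lengths of the annotation), ARO4 averaged 755.4 ± 27.4 in mub1 with CFW, 572.3 ± 52.8 in mub1 without, 465.7 ± 63.0 in wild type with CFW and 508.3 ± 5.4 in wild type without (SD, n = 2 each). ARO3 followed, with 603.7 ± 5.1, 557.3 ± 75.0, 326.8 ± 1.5 and 375.1 ± 0.7 TPM in the same 4 groups. Then came ARO2 (338.3 ± 5.5, 299.7 ± 6.6, 309.6 ± 58.5 and 341.2 ± 2.6 TPM). In each group the next were TRP2, TRP5 and TRP3, in that order. TRP2 averaged 180.5 ± 0.7 TPM in mub1 with CFW and 148.9 ± 9.5 in mub1 without. ARO1, TRP4 and ARO7 lay between 50.8 ± 5.7 (TRP4, wild type with CFW) and 87.0 ± 0.2 TPM (ARO1, mub1 with CFW). TRP1 had 51.2 ± 3.3 TPM in wild type with CFW and 52.1 ± 1.0 in wild type without, where TRP4 had 50.8 ± 5.7 with CFW and 54.0 ± 0.3 without. Neighbours in the order overlapped between libraries for TRP5 and TRP3 in mub1 with CFW and for ARO4 and ARO3 in mub1 without CFW. In wild type with CFW the overlaps were ARO3 with ARO2, TRP3 with ARO7, ARO7 with ARO1, and TRP1 with TRP4, and in wild type without CFW no neighbours overlapped.

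**Figure D4:**
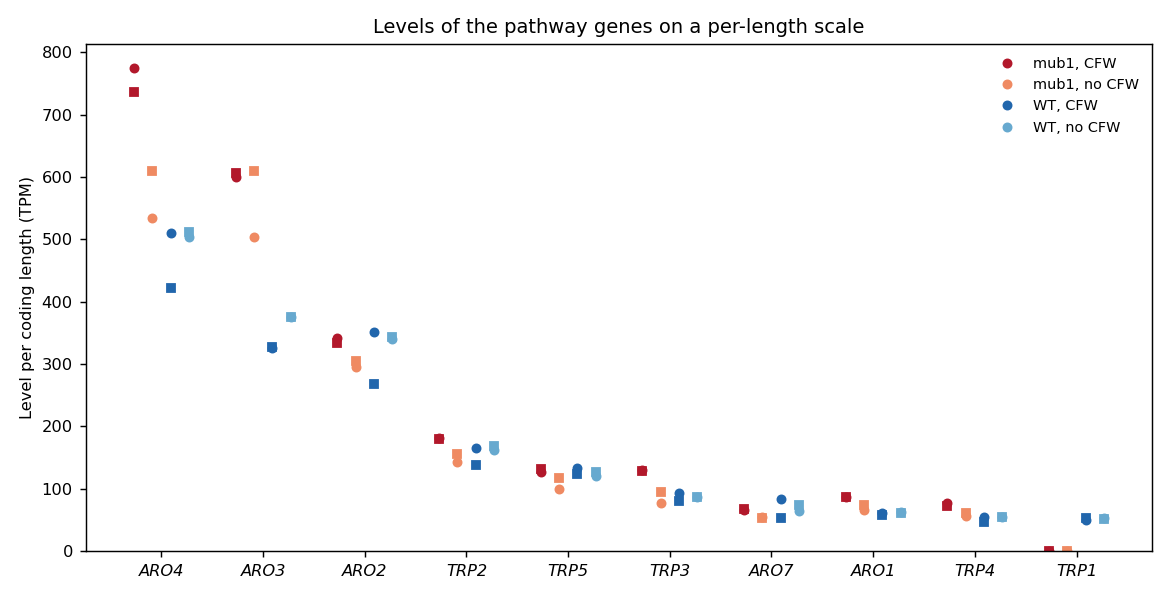
Level per coding length of the 10 genes in TPM (vertical axis, from 0), ordered by the mean in wild type without CFW. Each point is a library, circles replicate 1 and squares replicate 2, with groups from mub1 with CFW to wild type without CFW in each column. ARO4 and ARO3 are the highest in mub1 with CFW, at 755.4 and 603.7 TPM on average.

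Related genes were read from 5 lists, whose counts stand beside 13.8% of all tested genes higher and 14.0% lower with CFW in mub1, and 10.3% higher and 8.70% lower in wild type. The first held the 6 remaining enzymes after chorismate. In mub1 2 of the 6 rose with CFW and 0 fell, and in wild type 0 rose and 1 fell. The median log2 change was 0.08 in mub1 and 0.04 in wild type. TYR1, prephenate dehydrogenase of the tyrosine branch, had 111.9 and 111.6 CPM in mub1 with CFW and 80.4 and 88.5 without, a log2 rise of 0.40 ± 0.08 (edgeR adjusted p = 0.0071). PHA2, prephenate dehydratase of the phenylalanine branch, rose by 0.34 ± 0.09 (adjusted p = 0.0183, same test). ABZ1, which leads from chorismate to p-aminobenzoate, fell in wild type by 0.27 ± 0.07 on the log2 scale (adjusted p = 0.0251, edgeR), and was at -0.11 ± 0.07 in mub1. The aminotransferase genes ARO8 (0.16 ± 0.11 in mub1) and ARO9 (-0.01 ± 0.11) did not pass. Between genotypes ARO9, which also serves amino acid breakdown, was 2.95 ± 0.13 higher in mub1 with CFW and 3.21 ± 0.13 higher without, as log2 values given with no test.

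Of 11 genes that supply erythrose 4-phosphate, ribose 5-phosphate and phosphoribosyl pyrophosphate, 6 rose and 0 fell with CFW in mub1 (median log2 0.23), and 3 rose and 0 fell in wild type (median 0.09). In mub1 these were the transketolase genes TKL1 (0.37 ± 0.12) and TKL2 (0.77 ± 0.21) and the phosphoribosyl pyrophosphate synthetase genes PRS1 (0.39 ± 0.10), PRS2 (0.23 ± 0.07), PRS3 (0.38 ± 0.08) and PRS5 (0.42 ± 0.09). In wild type they were TKL1 (0.55 ± 0.12), TKL2 (1.89 ± 0.22) and NQM1, a transaldolase relative (0.91 ± 0.25), and none of the PRS genes. TKL2 had 104.0 and 123.6 CPM in mub1 with CFW and 79.2 and 54.3 without, against 70.2 and 103.5 in wild type with CFW and 24.1 and 22.7 without. Its interaction value was -1.12 ± 0.30 (edgeR adjusted p = 0.076), and for PRS1 to PRS5 the interaction values of 0.24 to 0.30 did not pass either. Genes with a close relative here, such as TKL1 with TKL2 or PRS2 with PRS4, are uncertain as far as the authors' counting could share reads between them.

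Among 7 uptake genes 2 rose and 1 fell with CFW in mub1 (median log2 -0.06), and 0 rose and 0 fell in wild type (median 0.03). BAP3, a permease of branched-chain and other amino acids, had 237.6 and 242.1 CPM in mub1 with CFW and 154.1 and 157.9 without, against 169.8 and 161.1 in wild type with CFW and 157.2 and 159.2 without. It rose by 0.62 ± 0.06 in mub1 (log2, edgeR adjusted p = 0.000556), and the interaction value of 0.56 ± 0.09 passed as well (adjusted p = 0.02, same test). BAP2 rose by 0.60 ± 0.09, and GAP1, the general permease, fell by 0.72 ± 0.11 in mub1. GAP1 had 714.7 and 642.4 CPM in mub1 with CFW and 1160.4 and 1074.7 without. In wild type it had 15.8 and 18.1 CPM with CFW and 19.8 and 16.2 without. The tryptophan and tyrosine permease genes TAT1 (0.10 ± 0.12) and TAT2 (-0.06 ± 0.07) did not pass in mub1.

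Of 5 regulator genes, 2 rose and 0 fell in mub1 (median log2 0.16) and 1 rose and 0 fell in wild type (median 0.17). GCN4 rose in both, by 0.31 ± 0.10 in mub1 (log2, edgeR adjusted p = 0.0407) and by 0.48 ± 0.10 in wild type (adjusted p = 0.0103, same test). Its level was 1369.7 and 1244.3 CPM in mub1 with CFW and 1056.3 and 1052.2 without, against 1070.0 and 1011.3 in wild type with CFW and 742.3 and 749.3 without. Output of this gene is known to be set largely by translation of its mRNA, which these data do not measure. BAS1, a factor of purine and histidine synthesis, rose in mub1 by 0.59 ± 0.10 (adjusted p = 0.00332, edgeR), and GCN2, PHO2 and ARO80, the activator of aromatic amino acid breakdown, did not pass in either genotype.

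Of 9 genes that use the aromatic amino acids, 1 rose and 3 fell in mub1 (median log2 -0.20) and 1 rose and 0 fell in wild type (median -0.06). WRS1, the cytosolic tryptophanyl-tRNA synthetase, rose in mub1 (0.41 ± 0.11, edgeR adjusted p = 0.0251), and its mitochondrial counterpart MSW1 (-0.31 ± 0.11) did not pass. The mitochondrial synthetase genes for phenylalanine and tyrosine, MSF1 (-0.37 ± 0.08) and MSY1 (-0.28 ± 0.09), fell. Their cytosolic counterparts FRS1 (0.27 ± 0.11), FRS2 (0.32 ± 0.12) and TYS1 (0.25 ± 0.09) did not pass. BNA2, which opens the tryptophan ring on the way to NAD, had 35.4 and 35.3 CPM in mub1 with CFW and 51.2 and 47.8 without, against 14.4 and 17.6 in wild type with CFW and 11.8 and 11.4 without. It fell by 0.49 ± 0.11 in mub1 and rose by 0.46 ± 0.12 in wild type, with an interaction value of -0.95 ± 0.16 (edgeR adjusted p = 0.021). ARO10, a decarboxylase of amino acid breakdown, did not pass in either genotype, and lay 2.73 ± 0.13 higher in mub1 with CFW and 2.60 ± 0.13 higher without (log2, no test).

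Across these 5 lists, 17 of 38 genes were called with CFW in mub1, where 27.7% of all tested genes were, and 4 of them (GAP1, BAP2, BAP3 and BAS1) kept the call in all 14 alternatives. Each of the other 13 lost it without at least 1 of the 4 mub1 libraries. In wild type 6 of the 38 were called, where 19.0% of all tested genes were, and TKL2 alone kept its call in all 15 alternatives, the other 5 losing it without either library lacking CFW.

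**Figure D5:**
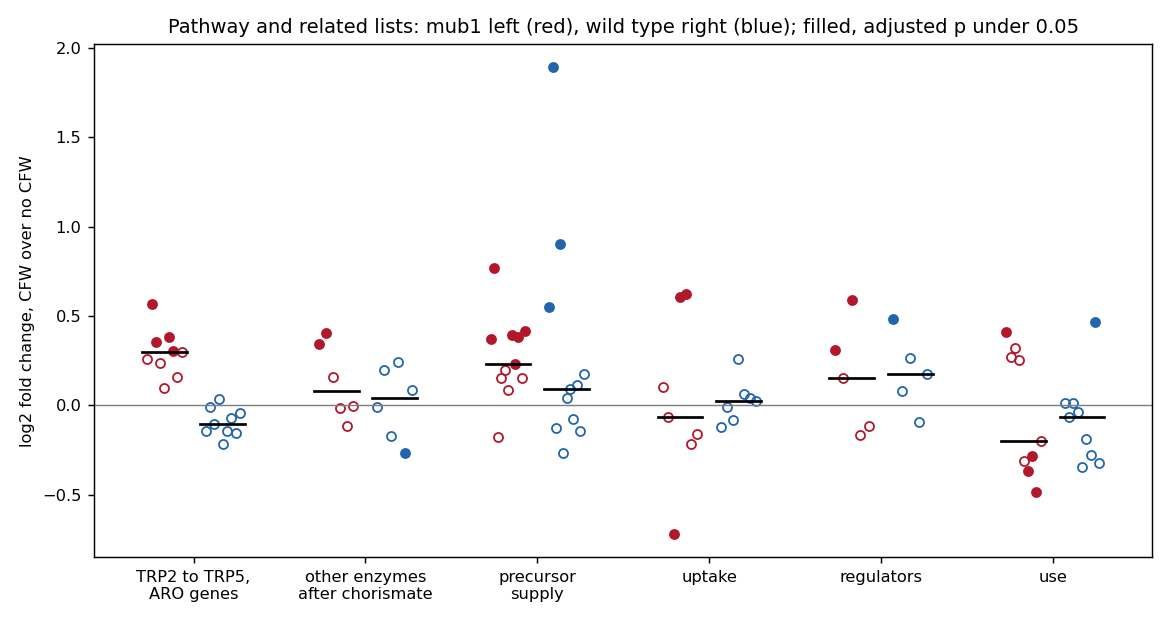
Log2 change with CFW (vertical axis) of each gene in the 9 pathway members and the 5 lists, mub1 in red on the left and wild type in blue on the right of each pair. Filled points had an adjusted p under 0.05 and black lines are medians, which for the 9 members were 0.30 in mub1 and -0.10 in wild type.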

How the data were processed

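The 8 stranded libraries of polyadenylated RNA were sequenced in pairs, per the labels. Reads were aligned with HISAT2 2.2.1 and counted with featureCounts 2.0.3, with FastQC 0.12.1 and build R64 also named, per the submitters' processing notes. The strand setting and the treatment of reads with several alignments are not given in the sources used here. The deposited counts per gene are whole numbers that the authors did not scale, and no row is a total. Of 6534 identifiers 5864 matched the RefSeq annotation of R64, which is the build named in the notes.

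The main test was that of edgeR 4.0.16 under R 4.3.3 (filterByExpr, TMM, 1 fit of 4 group means over 8 libraries with 4 residual degrees of freedom, robust quasi-likelihood F tests, Benjamini-Hochberg over 5954 genes, threshold 0.05). SE was derived from the log2 change and the F statistic, and 95% intervals use the t distribution with each gene's total degrees of freedom. DESeq2 1.42.0, other scalings, no filter, fits of 4 libraries, a replicate block and each library left out were alternatives. Likeness used log2(CPM + 0.5). Floors of 3 counts cover counting error only. The 95% intervals also carry the estimated spread between replicate libraries, which may be technical. The steps were run on simulated data with planted changes larger than most changes of the members with CFW. Nothing here rests on that run. Genes were named by list: the 10 members, 5 lists of related genes, the neighbours of TRP1 and 6 marker genes, with the 5 nearest profiles of TRP1 and 1 for each other member. Members and lists were chosen with earlier results of these data known. The numbers of the replicates do not mark a shared culture or day in the labels.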

Additional observations from a re-analysis of the deposited data

Results flagged for a closer look

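Among the listed genes, 3 had a response to CFW that differed between the genotypes by the test of the difference itself. HIS3, a marker gene read to check the labels, had 39.5 and 39.3 CPM in mub1 with CFW and 24.5 and 26.5 without, against 68.8 and 61.6 in wild type with CFW and 75.9 and 80.5 without. Its change in mub1 minus that in wild type was 0.89 on the log2 scale (edgeR adjusted p = 0.011), a call lost without either wild-type library lacking CFW, replicate 1 of mub1 lacking CFW or replicate 2 of mub1 with CFW (adjusted p of up to 0.0961). For BAP3 the change in mub1 minus that in wild type was 0.56 on the log2 scale (edgeR adjusted p = 0.02), and for BNA2 it was -0.95 (edgeR adjusted p = 0.021). BAP3 and BNA2 lost this call without any 1 of the 6 libraries outside the group wild type with CFW, with adjusted p of up to 0.134 for BAP3 and up to 0.132 for BNA2, while the signs of all 3 genes stayed. None of the 9 pathway genes other than TRP1 met this criterion.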

How the results depend on the processing

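Of 4 calls with CFW in mub1, leaving out single libraries gave 0 to 7, and fitting only the 4 libraries compared gave 7. In wild type the count of 0 became 0 to 4 with single libraries left out. For the interaction it was 0 to 7, and 3 by DESeq2. For mub1 against wild type the count was 1 to 5 without CFW (5 with only 4 libraries fitted) and 5 to 8 with CFW. From these counts of mub1 against wild type nothing is read, since this contrast was used in the choice of the genes. In the main fit 42.9% of all tested genes passed without CFW and 35.9% with CFW. Such shares are not given for the alternative fits, so shifts in any of these counts are not read as particular to the pathway. ARO7, mub1 against wild type with CFW, turned to 0.28 without replicate 1 of wild type with CFW and was -0.37 without replicate 2 of that group, against -0.08 with all libraries, and the cause was not tested. Of 654 log2 changes of single pathway genes under the alternatives, 594 stayed on their side of the threshold, with the same sign wherever a value was called, 17 lost a call, 42 gained one and 1 turned. No other scaling moved the median of all genes by over 0.1.

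The replicate numbers are only numbers: same-numbered libraries deviated together between the mub1 groups (r = 0.386 across 5236 genes) and oppositely between the wild-type groups (-0.359). Wild type with CFW also deviated oppositely to mub1 with CFW (-0.15) and without (-0.24). Wild type without CFW deviated together with mub1 with CFW (0.19) and without (0.26). Pairing was thus not established. With the replicate block 3 genes were called with CFW in mub1 and 0 in wild type. Crossing the numbers of wild type with CFW, a choice made after seeing the data, gave 0 with CFW in wild type. It gave 5 for mub1 against wild type with CFW, a count from which nothing is read.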
